A study of Mus musculus with 9 samples.

Results

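Gene expression in dystrophic quadriceps lacking the mineralocorticoid receptor (MR) in either of 2 cell types was compared with that of dystrophic quadriceps that retained it, in order to describe what loss of the receptor shares whichever cell type lost it. The comparison used all 9 arrays of the series: the mean of the 6 knockout arrays, 3 LysM-MRcko/mdx and 3 MCK-MRcko/mdx, was set against the mean of the 3 Cre-/mdx control arrays. It was made on all 65672 transcript clusters, the units that the Clariom D array measures, and on 30707 genes with 1 cluster each, the cluster with the highest mean standing for a gene with several. Each array held RNA of the whole quadriceps of 1 mouse aged 8 weeks, of strain C57BL6/C57BL10 and of either sex. All 3 groups carried the mdx mutation of dystrophin and both floxed copies of the MR gene. Their genotypes were Cre -/- MR flox/flox;mdx for Cre-/mdx, LysM-Cre+/- MR flox/flox;mdx for LysM-MRcko/mdx and MCK-Cre+/- MR flox/flox;mdx for MCK-MRcko/mdx. LysM-Cre is expressed from the lysozyme gene of myeloid cells, which include monocytes, macrophages and neutrophils, and MCK-Cre from the promoter of muscle creatine kinase, so the second knockout is one of myofibers. The comparison held no mice with unmodified MR genes and no healthy muscle. Every knockout mouse carried a Cre gene, and no control did. An effect of Cre shared by the knockouts therefore cannot be told apart from one of MR loss.

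MR is a nuclear receptor that binds aldosterone and glucocorticoids, moves to the nucleus and binds DNA at sites that it shares with the glucocorticoid receptor (GR). In dystrophic muscle, fibers without dystrophin tear, die and are rebuilt. Macrophages enter to take up the debris, which they digest in lysosomes, and their signals act on fibroblasts and on the satellite cells that regenerate fibers. In whole muscle RNA, fewer cells of a type and less RNA per cell cannot be told apart.

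All values below are log2 signals as deposited, and differences are the mean of the knockouts minus Cre-/mdx on that scale, so that 1 stands for 2-fold. A gene was called where the difference was at least 2-fold and the unadjusted p of the limma fit was under 0.05. Nr3c2, the gene of MR, measured 6.89, 7.12 and 7.06 in the Cre-/mdx arrays, 6.74, 6.81 and 6.87 in MCK-MRcko/mdx, and 6.89, 6.89 and 6.96 in LysM-MRcko/mdx. Its difference of -0.16 (SE 0.06, unadjusted p = 0.0254 and adjusted p = 0.842 in limma, exact two-sided permutation p = 0.0952) was far from 2-fold. All 3 MCK-MRcko/mdx arrays were below every control, and the LysM-MRcko/mdx arrays lay within the control range. A value over the whole gene in whole muscle includes exons outside the deleted part and cells without Cre, so it checks little about the deletions. The genes that define skeletal muscle were present at high signal in every array: Acta1, Myh4 and Atp2a1 stood at 19.93, the top of the scale, where no change can be seen. The sex given in the labels fitted Xist and the Y-linked genes of all 9 arrays, with 3 males and 3 females among the knockouts and 2 males and 1 female among the controls.

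At these thresholds 77 of 30707 genes were called (0.251%), 65 of them higher in the knockouts (0.212%) and 12 lower (0.0391%). Over transcript clusters the counts were 90 higher (0.137%) and 33 lower (0.0502%). No cluster had an adjusted p under 0.05 in limma: the smallest was 0.405, and 3631 clusters (5.53%) had an unadjusted p under 0.05. Among genes, the smallest adjusted p was 0.625, and it was 0.842 for every called gene other than Itgam. The median difference over all genes was 0.00. Of the 65 higher genes, 34 belong to 1 or more of 9 lists of leukocyte genes, and none of the 12 lower genes does. The lists cover macrophage markers, scavenger, Fc, toll-like and chemokine receptors with their partners and ligands, complement, lysosome, phagocyte oxidase and leukocyte actin. They were chosen with earlier results of these data known. The share of all genes that belong to them was not counted, so 34 of 65 is a description without a background. All 6 knockout arrays lay above all 3 control arrays for 38 of the 65 higher genes and below them for 2 of the 12 lower genes. Over all genes the same held for 1.44% (above) and 0.769% (below).

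The counts depended on single arrays. Without Cre-/mdx replicate 1, 27 of the 65 higher genes kept their call, and without LysM-MRcko/mdx replicate 1, 35 did. Leaving out any other array kept 51 to 60 of them. In the higher genes, Cre-/mdx replicate 1 had the lowest signals of the controls, with a median of -0.43 relative to the control mean against 0.09 and 0.27 in replicates 2 and 3, and LysM-MRcko/mdx replicate 1 had the highest of the knockouts, with 1.77 against 0.81 to 1.31 in the other 5. In all 9 fits that left out 1 array, 18 of the higher genes and 1 of the lower genes were called. Among these, 12 higher genes also had knockout arrays that did not overlap the controls and the largest differences, and these were macrophage and other myeloid genes with 1 exception, B4galt6. The exact permutation test over the 84 splits of 9 arrays into 6 and 3 gave p = 0.0238 for each of them, its two-sided minimum. Genes chosen for lack of overlap get this value by that choice, so it adds no evidence for these 12.

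Itgam, the alpha M chain of the integrin that binds complement fragments on myeloid cells, had the smallest SE of the 12 genes. It measured 10.19, 10.28 and 10.23 in Cre-/mdx, 11.51, 11.23 and 11.35 in MCK-MRcko/mdx, and 12.05, 11.38 and 11.39 in LysM-MRcko/mdx. The 3 control arrays were nearly equal (difference 1.25, SE 0.16, 2.38-fold, adjusted p = 0.625 in limma). The knockout arrays stood about a doubling or somewhat more above them, except LysM-MRcko/mdx replicate 1, which was higher still at 12.05. Cd68, a glycoprotein of macrophage lysosomes, had the largest difference of the 12, 1.55 (SE 0.37, 2.92-fold). It measured 12.29, 12.89 and 13.33 in Cre-/mdx, 13.70, 14.64 and 13.40 in MCK-MRcko/mdx, and 15.45, 14.43 and 14.69 in LysM-MRcko/mdx. The lowest knockout array was close to the highest control, so the groups separated by a narrow margin.

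The receptors among these genes showed the same separation, for which all 12 were chosen. C3ar1, the receptor of the complement fragment C3a, measured 11.18, 11.74 and 12.56 in Cre-/mdx, 13.00, 13.14 and 13.20 in MCK-MRcko/mdx, and 14.08, 13.15 and 13.55 in LysM-MRcko/mdx (difference 1.53, SE 0.32). Ccr2, the receptor through which CCL2 draws monocytes into tissue, measured 8.72, 8.50 and 8.50 in Cre-/mdx, 9.49, 9.85 and 10.41 in MCK-MRcko/mdx, and 10.09, 9.22 and 9.44 in LysM-MRcko/mdx (difference 1.18, SE 0.25). In both genes every knockout mouse was above every control mouse, and the control values of Ccr2 were nearly equal. Tlr13, an endosomal receptor of bacterial ribosomal RNA in the mouse, measured 7.41, 7.96 and 7.30 in Cre-/mdx, 8.96, 8.79 and 8.75 in MCK-MRcko/mdx, and 9.36, 8.32 and 8.40 in LysM-MRcko/mdx (difference 1.21, SE 0.26). Msr1, a scavenger receptor that takes up modified lipoproteins, measured 8.58, 9.12 and 8.19 in Cre-/mdx, 11.60, 10.23 and 10.64 in MCK-MRcko/mdx, and 9.87, 9.38 and 9.28 in LysM-MRcko/mdx (difference 1.54, SE 0.34). Its signal was high in the MCK-MRcko/mdx mice and between those and the controls in the LysM-MRcko/mdx mice.

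Of the enzymes, Ctss, the cathepsin that trims the invariant chain of MHC class II, measured 15.20, 16.09 and 15.61 in Cre-/mdx, 16.91, 16.84 and 17.10 in MCK-MRcko/mdx, and 17.96, 16.86 and 16.84 in LysM-MRcko/mdx (difference 1.45, SE 0.30). Lgmn, the asparaginyl endopeptidase legumain of lysosomes, measured 12.78, 13.06 and 13.68 in Cre-/mdx, 14.30, 14.57 and 14.21 in MCK-MRcko/mdx, and 15.54, 14.30 and 14.52 in LysM-MRcko/mdx (difference 1.40, SE 0.31). In both proteases LysM-MRcko/mdx replicate 1 stood well above the other 5 knockout arrays, which were close to each other. Alox5ap, the membrane protein that 5-lipoxygenase needs for the synthesis of leukotrienes, measured 10.88, 11.50 and 11.62 in Cre-/mdx, 13.17, 12.75 and 12.88 in MCK-MRcko/mdx, and 12.85, 11.85 and 12.40 in LysM-MRcko/mdx (difference 1.32, SE 0.26). B4galt6, a galactosyltransferase that makes lactosylceramide, measured 9.03, 8.88 and 9.03 in Cre-/mdx, 10.17, 10.47 and 10.37 in MCK-MRcko/mdx, and 10.50, 9.56 and 9.78 in LysM-MRcko/mdx (difference 1.16, SE 0.20). Its control arrays were nearly equal, and all knockout arrays were higher.

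The chemokine Pf4, made by platelets and macrophages, measured 8.53, 8.59 and 8.79 in Cre-/mdx, 11.17, 10.06 and 10.32 in MCK-MRcko/mdx, and 9.84, 9.08 and 9.68 in LysM-MRcko/mdx (difference 1.39, SE 0.27). Ms4a6c, a membrane protein of the MS4A family of leukocytes, measured 10.88, 11.44 and 11.15 in Cre-/mdx, 12.80, 12.18 and 12.20 in MCK-MRcko/mdx, and 12.62, 12.05 and 12.05 in LysM-MRcko/mdx (difference 1.16, SE 0.21). As in Msr1, the MCK-MRcko/mdx mice had the higher signals of Pf4, whereas Ms4a6c was alike in the 2 knockouts. The plot of the 12 genes by array shows each array relative to the control mean. The controls spread around 0 by construction, and all knockout arrays lie to the right of them by the choice of genes.

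**Figure D1:**
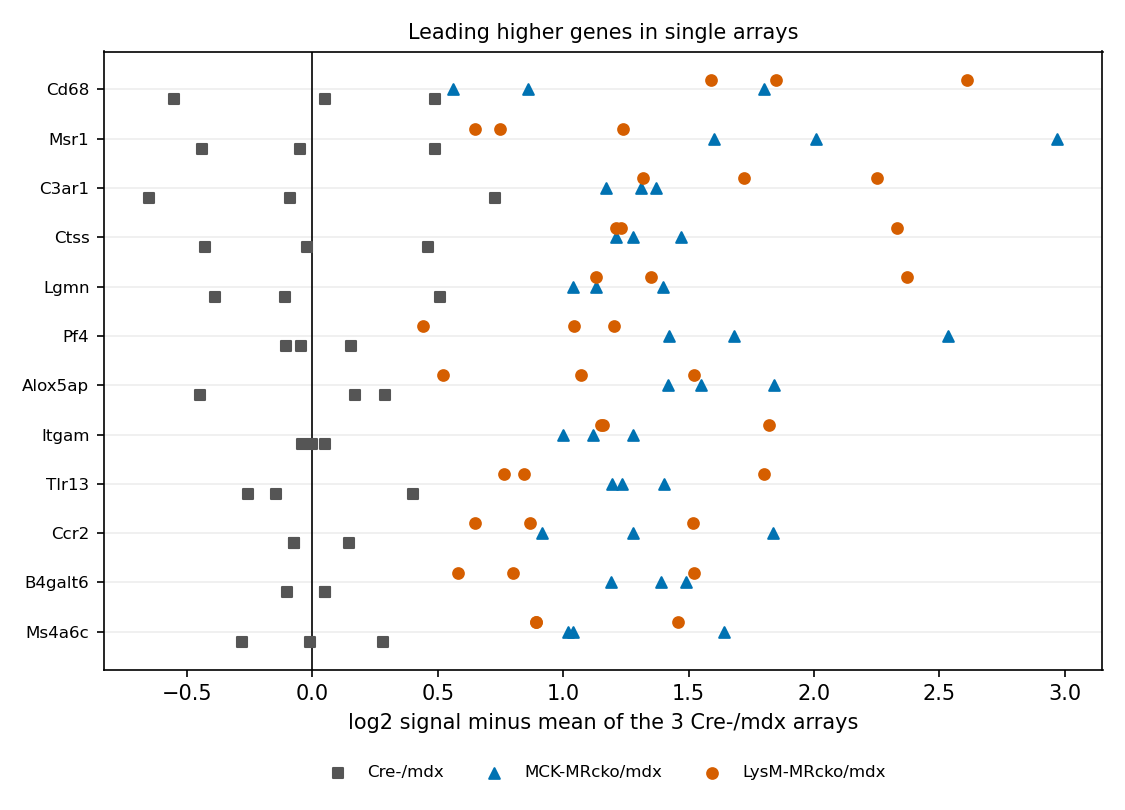
Log2 signal of the 12 leading higher genes in each of 9 arrays, minus the mean of the 3 Cre-/mdx arrays (horizontal axis); squares are Cre-/mdx, triangles MCK-MRcko/mdx and circles LysM-MRcko/mdx, 1 point per mouse. Every knockout point lies to the right of the control points of the same gene, for which the genes were chosen. The mean differences run from 1.16 (Ms4a6c) to 1.55 (Cd68).

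The promoters of called genes are given because genes that moved together can be compared for shared sequence. Sequences come from RefSeq (build GRCm38.p6) and span 250 bases before to 50 after a start of transcription, 300 in all. A window was found for 44 of the 65 higher genes, 6 of the 12 lower genes and 18275 genes in all. Some genes had more than 1 window, and a gene was counted where any of its windows held the motif. PU.1 is the transcription factor of myeloid cells encoded by Spi1. Its motif GAGGAAGT, or ACTTCCTC when read on the other strand, was present in 7 of the 44 higher promoters (15.9%), 1 of the 6 lower ones and 3.51% of all. The 4 shown first are those of Ctss (chr3:95526536-95526835, plus strand), Pf4 (chr5:90772185-90772484, plus strand), Mmp12 (chr9:7344147-7344446, plus strand) and C1qc (chr4:136892865-136893164, minus strand), with the PU.1 motif in capitals.
Ctss: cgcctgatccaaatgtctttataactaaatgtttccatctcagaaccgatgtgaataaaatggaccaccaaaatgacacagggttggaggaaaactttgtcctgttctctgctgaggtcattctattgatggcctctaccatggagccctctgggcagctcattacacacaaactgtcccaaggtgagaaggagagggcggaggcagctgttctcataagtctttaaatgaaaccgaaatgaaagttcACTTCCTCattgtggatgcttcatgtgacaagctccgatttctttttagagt
Pf4: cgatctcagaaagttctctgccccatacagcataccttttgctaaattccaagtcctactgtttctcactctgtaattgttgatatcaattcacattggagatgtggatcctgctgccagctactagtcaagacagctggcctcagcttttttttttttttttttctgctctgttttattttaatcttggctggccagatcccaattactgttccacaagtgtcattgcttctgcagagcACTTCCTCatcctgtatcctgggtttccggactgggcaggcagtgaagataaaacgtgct
Mmp12: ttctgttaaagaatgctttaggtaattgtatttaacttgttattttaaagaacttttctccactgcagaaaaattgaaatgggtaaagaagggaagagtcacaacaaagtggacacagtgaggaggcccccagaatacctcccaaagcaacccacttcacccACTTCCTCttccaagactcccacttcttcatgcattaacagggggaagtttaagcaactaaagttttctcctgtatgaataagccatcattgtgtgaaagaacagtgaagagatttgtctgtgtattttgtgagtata
C1qc: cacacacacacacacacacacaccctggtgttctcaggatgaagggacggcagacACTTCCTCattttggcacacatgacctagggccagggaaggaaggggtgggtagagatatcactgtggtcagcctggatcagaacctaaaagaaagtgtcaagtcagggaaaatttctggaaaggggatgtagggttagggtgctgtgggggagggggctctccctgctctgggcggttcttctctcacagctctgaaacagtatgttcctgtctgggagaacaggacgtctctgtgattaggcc
The motif ran on the reverse strand in all 4, and in Ctss and Pf4 it lay close to the start of transcription. Among the other promoters with the motif, it ran on the reverse strand in Cd53 and on the forward strand in Pld4, Tlr1 and the lower gene Coro6. Mmp12, Tlr1 and Coro6 each had another window without the PU.1 motif. The 6-base core that MR and GR bind, AGAACA or TGTTCT on the other strand, was in 13 of the 44 higher promoters (29.5%), 3 of the 6 lower ones (Adgrf5, Asb15 and Lrtm1) and 19.2% of all. The full site, which is AGAACA followed by any 3 bases and TGTTCT, was in none of the called promoters and in 2 of the 18275. The 6-base core is in capitals in the windows of Tlr13 (chrX:106143025-106143324, plus strand) and Lrtm1 (chr14:29017958-29018257, plus strand), a higher and a lower gene called in all 9 fits that left out 1 array.
Tlr13: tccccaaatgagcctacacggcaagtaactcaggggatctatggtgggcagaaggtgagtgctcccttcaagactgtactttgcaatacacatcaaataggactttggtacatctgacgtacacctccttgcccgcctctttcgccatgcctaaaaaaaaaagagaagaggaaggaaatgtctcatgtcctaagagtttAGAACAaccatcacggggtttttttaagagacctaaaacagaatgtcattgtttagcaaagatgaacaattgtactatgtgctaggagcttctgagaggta
Lrtm1: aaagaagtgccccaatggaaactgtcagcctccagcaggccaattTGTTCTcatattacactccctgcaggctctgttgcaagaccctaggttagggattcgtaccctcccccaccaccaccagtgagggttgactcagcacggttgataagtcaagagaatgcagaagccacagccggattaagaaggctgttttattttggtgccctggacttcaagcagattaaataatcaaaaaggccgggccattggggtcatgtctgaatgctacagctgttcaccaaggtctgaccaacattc
The motif of ERR alpha, TCAAGGTCA, was in 1 higher promoter (Cd84) and 0.361% of all, and the cyclic AMP response element TGACGTCA was in none of the called promoters and 2.48% of all. None of these motifs overlaps another except where the core is part of the full site. These counts are a description of letters in short windows, and binding was not measured.

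The list of macrophage markers carried the largest median difference of the 49 lists described, 0.96, beside a median of 0.00 over all genes. Of its 24 members 11 were called higher, against 0.212% of all genes. In 12 of them all knockout arrays lay above all controls, against 1.44% of all genes, and all 24 had a difference above 0. The called members are Cd68, Ctss, Tyrobp, Cd53, Mpeg1, Itgam, Ccr2, Adgre1, Fcer1g, Mrc1 and Itgb2. Adgre1, the F4/80 antigen of macrophages, measured 9.73, 9.78 and 10.26 in Cre-/mdx, 10.73, 10.89 and 11.24 in MCK-MRcko/mdx, and 11.49, 10.65 and 11.03 in LysM-MRcko/mdx. Mrc1, the mannose receptor of resident and repair macrophages, measured 14.04, 13.91 and 13.71 in Cre-/mdx, 15.82, 15.15 and 14.99 in MCK-MRcko/mdx, and 14.59 in each LysM-MRcko/mdx array. Neither gene overlapped the controls. Adgre1 (difference 1.08) fell under the 2-fold limit when replicate 1 of Cre-/mdx (0.99) or of LysM-MRcko/mdx (0.97) was left out, and Mrc1 (1.07) when Cre-/mdx 3 (0.98) or MCK-MRcko/mdx 1 (0.94) was. Values that are equal in all 3 arrays of a group, as those of Mrc1 were, occurred in 18.1% of all clusters and in 2 of the called genes, Mrc1 and Ctsz, and leave a spread of 0 within that group. The median of the list was -0.26, 0.05 and 0.21 in the Cre-/mdx arrays relative to their mean, 0.74, 0.90 and 0.64 in MCK-MRcko/mdx, and 1.57, 0.80 and 1.04 in LysM-MRcko/mdx. The median difference of the list was 0.76 to 1.07 when any 1 array was left out.

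Members of the list just under 2-fold are named here after their values were seen. Csf1r, the receptor of the growth factor that macrophages need, differed by 0.96 (SE 0.15) without overlap. Spi1 differed by 0.97 (SE 0.32) with overlap, by 1.47 in LysM-MRcko/mdx and 0.46 in MCK-MRcko/mdx. Lgals3, the lectin galectin-3, differed by 0.75 (SE 0.13) without overlap. Between the knockouts 5 of the 24 members differed at the threshold of a call: Fcer1g, Spi1, Laptm5 and Siglec1 were higher in LysM-MRcko/mdx, and Lyz2 in MCK-MRcko/mdx. The smallest differences were those of Mertk (0.24) and Cd163 (0.21), receptors of macrophages that take up dying cells and hemoglobin, and neither had an unadjusted p under 0.05. Lyz2, the lysozyme gene that drives Cre in the LysM-MRcko/mdx mice, measured 16.95, 17.88 and 18.03 in Cre-/mdx, 18.78, 18.18 and 18.73 in MCK-MRcko/mdx, and 17.85, 17.23 and 17.47 in LysM-MRcko/mdx. The MCK-MRcko/mdx arrays were the highest, and the LysM-MRcko/mdx arrays lay within the control range. Because Cre is expressed from this gene in LysM-MRcko/mdx, Lyz2 cannot be read there as a macrophage marker alone. The part of Cre in its signal was not tested.

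Other lists of phagocyte function moved the same way. Over all genes 0.212% were called higher, and 1.44% had all knockout arrays above all controls. In the list of Fc receptors and ITAM adaptors, 4 of 14 members were called higher (Lilrb4a, Tyrobp, Sirpa and Fcer1g), 7 had no overlap, and the median was 0.82. Fcer1g overlapped the controls and was called in only 3 of the 9 fits that left out 1 array. Tyrobp, the adaptor DAP12 that carries signals of activating receptors, measured 7.63, 9.08 and 9.40 in Cre-/mdx, 9.93, 9.58 and 10.41 in MCK-MRcko/mdx, and 10.69, 9.79 and 10.08 in LysM-MRcko/mdx. Its difference of 1.38 fell to 0.84, and its call was lost, without Cre-/mdx replicate 1, the lowest array. Among lysosomal enzymes and membrane proteins, 4 of 16 were called higher (Lgmn, Lipa, Hexa and Ctsz), all 16 had a difference above 0, and the median was 0.77. Lipa, the acid lipase that frees cholesterol from lipoproteins, measured 12.07, 13.62 and 13.50 in Cre-/mdx, 14.03, 14.20 and 14.43 in MCK-MRcko/mdx, and 14.58, 14.03 and 14.25 in LysM-MRcko/mdx. It differed by 1.19, or by 0.69 and without a call when Cre-/mdx replicate 1 was left out, and Hexa and Ctsz lost their calls when that array (0.82 and 0.81) or LysM-MRcko/mdx replicate 1 (0.98 and 0.86) was left out.

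Chemokines and their receptors had 4 called members of 21 (Pf4, Ccl8, Ccl9 and Ccr2) and a median of 0.70, or 0.485 without Cre-/mdx replicate 3. Toll-like receptors and their partners had 4 of 15 (Cd180, Tlr13, Ly86 and Tlr1) and a median of 0.61. Ccl9 and Ly86 overlapped the controls, and each was called in only 2 of the 9 fits that left out 1 array. Ccl8, a chemokine of macrophages, measured 7.34, 9.22 and 9.70 in Cre-/mdx, 10.43, 9.93 and 9.85 in MCK-MRcko/mdx, and 9.85, 10.03 and 10.39 in LysM-MRcko/mdx. The knockouts were alike and above all controls, but the difference of 1.33 fell to 0.62 without Cre-/mdx replicate 1. Complement genes had 3 called members of 14, C3ar1 and the C1q chains C1qb (1.23) and C1qc (1.01), of which both C1q chains overlapped the controls and were not called when Cre-/mdx replicate 1 was left out (0.68 and 0.73). The phagocyte oxidase list had 1 of 5, its catalytic subunit Cybb (1.06, or 0.77 without Cre-/mdx replicate 1), and a list median of 0.62 (0.40 without that array). Scavenger receptors had 4 of 16, Gpnmb, Msr1, Folr2 and Mrc1, but a list median of 0.25 (0.41 without Cre-/mdx replicate 2). Gpnmb overlapped the controls and was called in only 3 of the 9 fits that left out 1 array. Leukocyte actin regulators had 3 of 15, Cotl1, Nckap1l and Lcp1, and a median of 0.39. In 8 members all knockout arrays lay above all controls, against 1.44% of all genes. Dock2, an activator of the GTPase Rac in leukocytes that was named after its values were seen, had the smallest p of this list: it measured 8.07, 8.18 and 8.25 in Cre-/mdx, 8.99, 8.82 and 8.87 in MCK-MRcko/mdx, and 9.08, 8.64 and 8.91 in LysM-MRcko/mdx (difference 0.72, SE 0.10).

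Markers of other blood cells had median differences near 0, which for neutrophil, mast cell and eosinophil markers depended on 1 control array. The median difference was 0.06 over 14 neutrophil markers, 0.07 over 13 T and NK cell markers, 0.02 over 7 B cell markers and 0.02 over 10 mast cell and eosinophil markers, with 1 call among them all, Il7r (1.04), the receptor of interleukin 7. Without Cre-/mdx replicate 2 the median was 0.46 for neutrophil markers and 0.26 for mast cell and eosinophil markers. Array medians over all 9 arrays ran only from 0.01 to 0.11 for T and NK cell markers and from -0.01 to 0.02 for B cell markers. Whether the signals of these lists stood above background was not tested, so a change in these cells could have gone unseen. The neutrophil list had array medians of -0.21, 0.78 and -0.29 in Cre-/mdx, 0.19, -0.01 and -0.10 in MCK-MRcko/mdx, and 0.25, 0.01 and 0.02 in LysM-MRcko/mdx, so that every knockout array was above control replicates 1 and 3 and below replicate 2. Il7r measured 8.29, 8.80 and 7.64 in Cre-/mdx, 10.08, 9.71 and 9.09 in MCK-MRcko/mdx, and 8.98, 8.88 and 8.98 in LysM-MRcko/mdx, and it was not called when Cre-/mdx replicate 3 (0.74) or the first MCK-MRcko/mdx array (0.93) was left out. Interferon-stimulated genes had a median of 0.07 and no call among 16, and MHC class II and dendritic cell genes a median of 0.43 (0.17 without Cre-/mdx replicate 1 and 0.26 without replicate 2) and no call among 11.

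**Figure D2:**
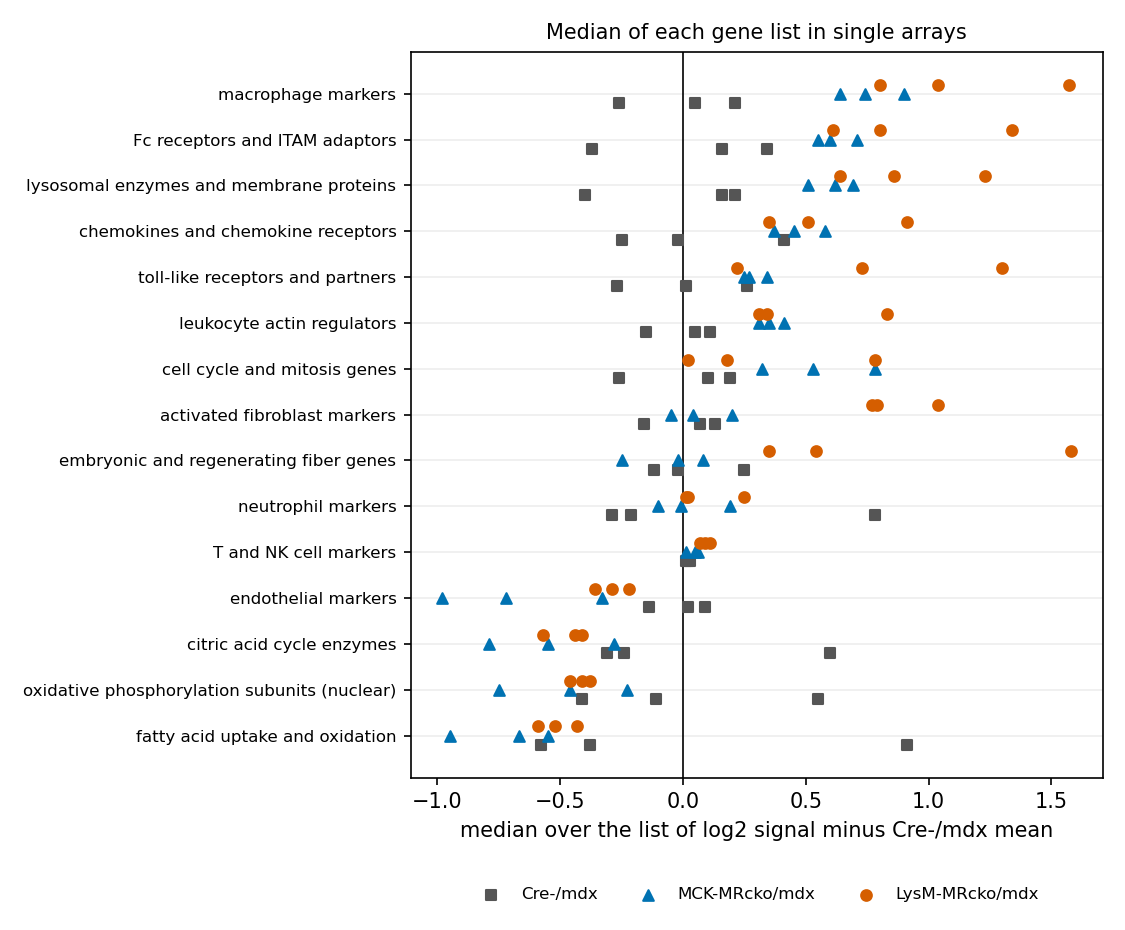
Median over each of 15 gene lists of the log2 signal minus the Cre-/mdx mean (horizontal axis), in each array; squares are Cre-/mdx, triangles MCK-MRcko/mdx and circles LysM-MRcko/mdx, 1 point per mouse. The macrophage list runs from -0.26 to 0.21 in the controls and from 0.64 to 1.57 in the knockouts, whereas in the 3 oxidative lists at the foot 1 control array, Cre-/mdx replicate 2, stands apart on the right.

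Whether the 2 knockouts differed from each other was tested with the contrast of LysM-MRcko/mdx against MCK-MRcko/mdx. Its differences make no use of the control arrays. Its p-values and intervals do, because the spread between mice was estimated from all 9 arrays. Over all genes 155 (0.505%) differed by at least 2-fold with an unadjusted p under 0.05, and 2507 (8.16%) had such a p. None had an adjusted p under 0.05 in limma (smallest 0.105). Of the 77 genes called against the controls, 7 differed at that threshold and 15 had an unadjusted p under 0.05. The median difference between the knockouts was -0.04 over the 65 higher genes, and 31 of them were higher in LysM-MRcko/mdx.

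Tnc, the matrix glycoprotein tenascin C, had the largest difference from control of all higher genes, 1.73 (SE 0.46), but it came from 1 knockout. It measured 9.99, 8.84 and 10.35 in Cre-/mdx, 9.76, 9.79 and 10.55 in MCK-MRcko/mdx, and 13.80, 12.54 and 12.28 in LysM-MRcko/mdx. Of the MCK-MRcko/mdx arrays 1 was just above the highest control and the others lay within the control range, and the knockouts differed from each other by 2.84 (95% interval 1.58 to 4.10). C1qtnf3, a secreted protein related to C1q and tumor necrosis factor, measured 9.22, 8.94 and 9.05 in Cre-/mdx, 8.82, 9.41 and 9.72 in MCK-MRcko/mdx, and 11.54, 11.08 and 11.38 in LysM-MRcko/mdx. It too was high in LysM-MRcko/mdx alone (between the knockouts 2.02, interval 1.46 to 2.57). Postn, the matrix protein periostin, measured 15.76, 14.94 and 16.47 in Cre-/mdx, 16.21, 16.24 and 16.51 in MCK-MRcko/mdx, and 17.51, 17.87 and 17.45 in LysM-MRcko/mdx (between the knockouts 1.29, interval 0.45 to 2.13), and its difference from control of 1.24 fell to 0.85 without Cre-/mdx replicate 2. Fcer1g (1.23) and Pld4, a nuclease of endosomes (1.08), were also higher in LysM-MRcko/mdx, and these 2 fell to 0.85 and 0.88 without LysM-MRcko/mdx replicate 1. Msr1 was the one named gene that was higher in MCK-MRcko/mdx at this threshold (-1.31, interval -2.25 to -0.38), and this was -0.93 without MCK-MRcko/mdx replicate 1.

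For 12 of the 65 higher genes the 95% interval of the difference between the knockouts lay within 2-fold in both directions. Those with a clear identity include Itgam (0.24, interval -0.19 to 0.67), Tlr13 (-0.14, -0.85 to 0.57), B4galt6 (-0.39, -0.93 to 0.15), Ms4a6c (-0.15, -0.73 to 0.42), Adgre1 (0.10, -0.49 to 0.70) and Tgfbi (0.27, -0.26 to 0.80). Tgfbi, a secreted protein of the matrix that TGF-beta induces, was also called in all 9 fits that left out 1 array. It measured 12.39, 12.37 and 12.34 in Cre-/mdx, 13.71, 13.23 and 13.22 in MCK-MRcko/mdx, and 14.08, 13.22 and 13.67 in LysM-MRcko/mdx (difference 1.16, SE 0.20, without overlap). For the other 53 higher genes and all 12 lower genes the interval reached a difference of 2-fold between the knockouts in 1 or both directions.

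**Figure D3:**
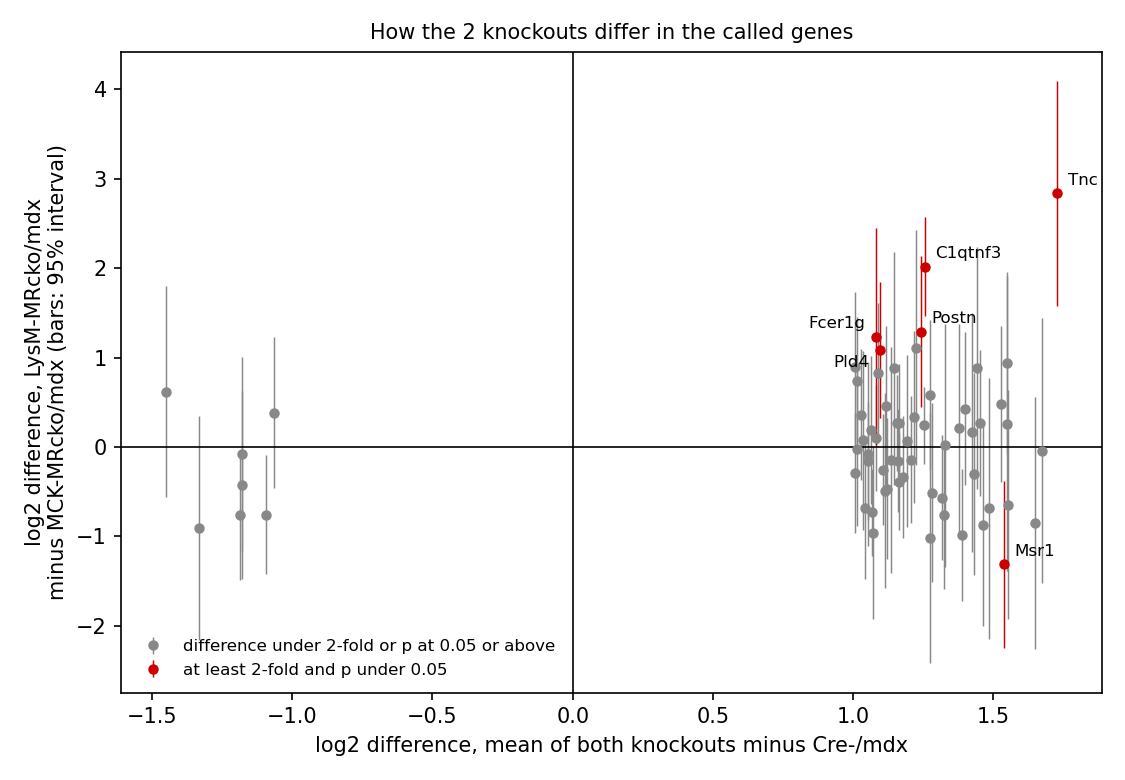
The 64 called genes left after genes with symbols of predicted genes, pseudogenes (other than H2ac14), small RNAs and a T cell receptor segment were set aside: log2 difference of both knockouts from Cre-/mdx (horizontal axis) and of LysM-MRcko/mdx from MCK-MRcko/mdx with its 95% interval (vertical axis). The 6 red, labelled genes differ between the knockouts by at least 2-fold with p under 0.05, from -1.31 (Msr1) to 2.84 (Tnc), and the grey points lie on both sides of 0.

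Matrix genes were called in small numbers. Of 18 markers of activated fibroblasts 3 were called higher (Tnc, Postn and Tgfbi), 5 differed between the knockouts, and the median against the same controls was 0.82 in LysM-MRcko/mdx but 0.17 in MCK-MRcko/mdx. Among 18 collagens none was called and the median was 0.32, or -0.01 without Cre-/mdx replicate 2 and 0.50 without replicate 3. Mmp12, the elastase of macrophages, had the second largest difference of all higher genes, 1.67 (SE 0.54), and was called in all 9 fits that left out 1 array, although its size moved to 1.01 without Cre-/mdx replicate 1. It measured 6.98, 9.61 and 8.31 in Cre-/mdx, 9.62, 10.52 and 9.84 in MCK-MRcko/mdx, and 10.06, 10.22 and 9.58 in LysM-MRcko/mdx, so that 1 control lay between the lowest knockout arrays. Lox, the lysyl oxidase that cross-links collagen and elastin, measured 11.67, 10.85 and 11.00 in Cre-/mdx, 12.23, 11.83 and 12.23 in MCK-MRcko/mdx, and 12.24, 12.08 and 11.83 in LysM-MRcko/mdx. It was higher in every knockout array, short of 2-fold (difference 0.90, SE 0.20, exact permutation p = 0.0238), and the knockouts differed by -0.05 (interval -0.60 to 0.51). Its relative Loxl1 differed from control by 0.82 and between the knockouts by 1.16 (interval 0.49 to 1.83). Timp1, an inhibitor of matrix metalloproteinases that was named after its values were seen, measured 6.31, 6.53 and 6.30 in Cre-/mdx, 7.25, 7.01 and 7.43 in MCK-MRcko/mdx, and 7.59, 6.95 and 7.19 in LysM-MRcko/mdx (difference 0.86, SE 0.16). The knockouts were alike in Timp1.

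Genes of regenerating fibers had no call among 14 embryonic and regenerating fiber genes, 7 of which differed between the knockouts. The list had a median of 0.82 in LysM-MRcko/mdx but -0.11 in MCK-MRcko/mdx. Tnni1, the slow troponin I of developing fibers, measured 9.60, 10.47 and 10.53 in Cre-/mdx, 10.21, 10.03 and 10.58 in MCK-MRcko/mdx, and 12.62, 11.17 and 11.52 in LysM-MRcko/mdx. It was high in LysM-MRcko/mdx alone.

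Genes of dividing cells were mostly above the control mean without reaching the call. Of 28 cell cycle and mitosis genes 27 had a difference above 0, with a median of 0.42, and 1 was called. That gene, the mitotic kinesin Kif11, measured 7.87, 6.91 and 7.65 in Cre-/mdx, 8.69, 8.92 and 9.47 in MCK-MRcko/mdx, and 8.79, 7.44 and 7.97 in LysM-MRcko/mdx. The MCK-MRcko/mdx arrays were high and 1 LysM-MRcko/mdx array lay within the control range, and the difference of 1.07 was not called when Cre-/mdx replicate 2 (0.79), the third MCK-MRcko/mdx array (0.96) or the first LysM-MRcko/mdx array (0.89) was left out. Histone genes of the replication-dependent families, picked out after their values were seen, had 4 called higher among 27 measured (H2ac14, H2ac10, H2ac15 and H1f1) and a median of 0.38, with 24 above 0. H2ac14, which RefSeq lists as a pseudogene, measured 13.68, 13.68 and 14.69 in Cre-/mdx, 15.87, 16.05 and 16.34 in MCK-MRcko/mdx, and 16.57, 14.20 and 14.95 in LysM-MRcko/mdx. The difference was 1.65 (SE 0.52), and without Cre-/mdx replicate 1 or 2 it was 1.48 and no longer called. Histone genes are near-identical copies, so the signal of a single copy is uncertain.

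Lists of the cytoskeleton and of membrane repair had higher medians without a call. Among 11 tubulins the median was 0.77, and 0.50 without the first LysM-MRcko/mdx array. Tubb2b, Tubb6 and Tuba4a, named after their values were seen, were the 3 members that differed between the knockouts. Tuba1a, an alpha tubulin of growing cells, measured 15.19, 15.12 and 15.70 in Cre-/mdx, 15.60, 16.09 and 16.02 in MCK-MRcko/mdx, and 17.42, 16.07 and 16.48 in LysM-MRcko/mdx (difference 0.94, SE 0.31). The highest signals were in LysM-MRcko/mdx, and 1 MCK-MRcko/mdx array lay within the control range. Annexins and S100 proteins, which bind calcium and in part membranes, had a median of 0.28 over 14 members. Anxa2, an annexin that takes part in the repair of torn membranes, measured 11.22, 10.58 and 11.31 in Cre-/mdx, 12.27, 11.89 and 12.15 in MCK-MRcko/mdx, and 12.38, 11.45 and 11.81 in LysM-MRcko/mdx. It was above all controls in every knockout array and just short of 2-fold (difference 0.96, SE 0.24).

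The 12 lower genes included 7 with a named protein: Asb15, Acot2, Lrtm1, Ppargc1a, Coro6, Coq5 and Adgrf5. Lrtm1, a membrane protein with leucine-rich repeats, was the one called in all 9 fits that left out 1 array. It measured 11.64, 11.31 and 11.26 in Cre-/mdx, 10.23, 10.63 and 10.92 in MCK-MRcko/mdx, and 9.37, 9.66 and 10.48 in LysM-MRcko/mdx. All knockout arrays were below all controls, which fixes the exact permutation p at 0.0238, and the difference was -1.19 (SE 0.27). Coq5, a methyltransferase of ubiquinone synthesis, was the other gene without overlap. It measured 15.81, 16.08 and 15.24 in Cre-/mdx, 14.99, 15.01 and 14.98 in MCK-MRcko/mdx, and 14.24, 14.71 and 13.76 in LysM-MRcko/mdx (difference -1.10, SE 0.24). Its signal was lowest in LysM-MRcko/mdx, and the call was lost when Cre-/mdx replicate 2 (-0.91) or the third LysM-MRcko/mdx array (-0.98) was left out.

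In the other 5 named lower genes the lowest control array overlapped the knockouts, in Asb15 and Adgrf5 only with the highest knockout array. Asb15, a substrate adaptor of ubiquitin ligases in muscle, had the largest difference, -1.45 (SE 0.43). It measured 13.09, 12.47 and 11.74 in Cre-/mdx, 10.32, 11.45 and 10.25 in MCK-MRcko/mdx, and 10.63, 11.86 and 11.39 in LysM-MRcko/mdx, and it was not called without Cre-/mdx replicate 1 (-1.12). Ppargc1a, the coactivator that drives genes of mitochondria and oxidative fibers, measured 12.01, 11.12 and 10.13 in Cre-/mdx, 10.10, 10.13 and 9.61 in MCK-MRcko/mdx, and 9.56, 10.28 and 9.76 in LysM-MRcko/mdx. The first 2 controls were high and replicate 3 lay within the range of the knockouts. The difference of -1.18 (SE 0.40) fell short of the call without Cre-/mdx replicate 1 (-0.72) or 2 (-1.16). Acot2, a thioesterase of fatty acyl-CoA in mitochondria, measured 10.48, 10.79 and 9.38 in Cre-/mdx, 9.49, 9.62 and 8.90 in MCK-MRcko/mdx, and 7.65, 9.38 and 8.27 in LysM-MRcko/mdx. Its control replicate 3 was also among the knockouts, and the difference of -1.33 (SE 0.46) was not called without Cre-/mdx replicate 1 (-1.20) or 2 (-1.04). Coro6, an actin-binding coronin, differed by -1.18 (SE 0.39) and lost its call without the same 2 arrays (-1.13 and -0.84).

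**Figure D4:**
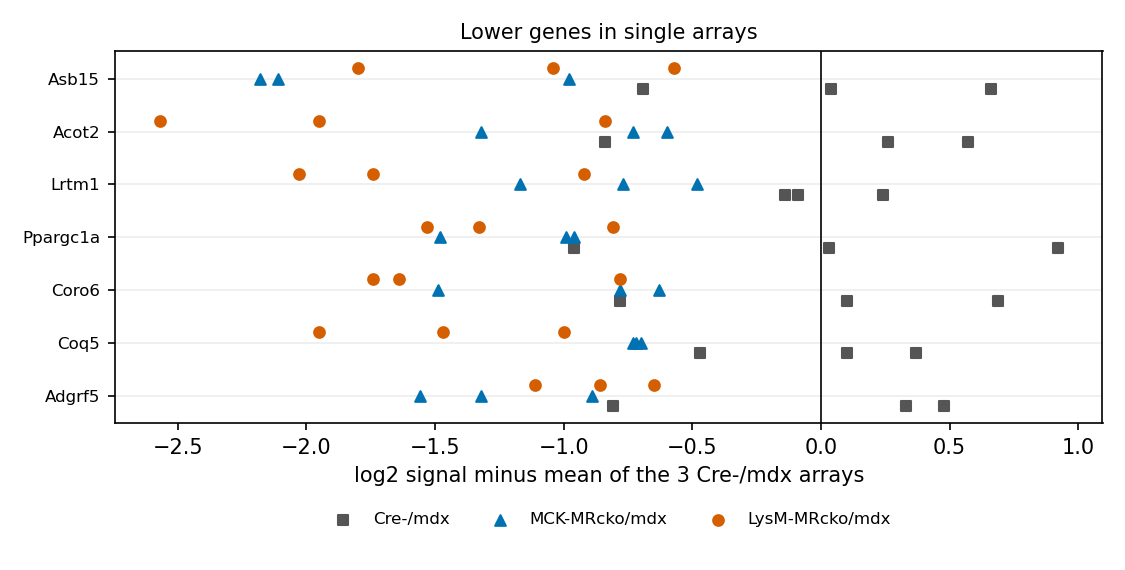
Log2 signal of 7 lower genes in each array minus the mean of the 3 Cre-/mdx arrays (horizontal axis); squares are Cre-/mdx, triangles MCK-MRcko/mdx and circles LysM-MRcko/mdx, 1 point per mouse. Knockout and control points are apart in Lrtm1 and Coq5, and in the other 5 genes 1 control point falls among the knockout points.

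Genes of oxidative metabolism had lower signals in the knockouts, and the size of this difference depended on 1 control array. All 18 genes of fatty acid uptake and oxidation, all 20 citric acid cycle enzymes and all 21 nuclear-encoded subunits of oxidative phosphorylation had a difference below 0, with medians of -0.64, -0.53 and -0.52 and 1 call among them, Acot2. The list of fatty acid genes had array medians of -0.38, 0.91 and -0.58 in Cre-/mdx, -0.95, -0.67 and -0.55 in MCK-MRcko/mdx, and -0.52, -0.59 and -0.43 in LysM-MRcko/mdx. Cre-/mdx replicate 2 thus stood apart from the other controls, which were in or near the range of the knockouts, and the same held for citric acid cycle enzymes (-0.24, 0.60 and -0.31 in Cre-/mdx) and oxidative phosphorylation (-0.41, 0.55 and -0.11). Without it the 3 medians were -0.21 for fatty acid genes, -0.25 for the citric acid cycle and -0.16 for oxidative phosphorylation. The same array was high in neutrophil markers (median 0.78 against -0.21 and -0.29 in the other controls) and adipocyte markers (1.32 against -0.10 and -0.91). It came from the only female among the controls, so sex and single mouse cannot be told apart there. The part of these differences between control mice in the lower signals was not tested. Among genes without overlap were Sucla2, a subunit of succinyl-CoA synthetase (-0.60, SE 0.17), and Ndufv1, a subunit of respiratory complex I (-0.52, SE 0.16), the latter named after its values were seen: Ndufv1 measured 10.31, 11.05 and 10.64 in Cre-/mdx, 9.84, 10.10 and 10.26 in MCK-MRcko/mdx, and 10.20, 10.21 and 10.26 in LysM-MRcko/mdx.

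The median over endothelial markers was lower in every knockout array than in every control. Of 21 members 1 was called lower (Adgrf5), against 0.0391% of all genes. Below all controls in every knockout array lay 5 members, against 0.769% of all genes. A difference above 0 was seen in 1 member, and the list median was -0.52. The array medians were -0.14, 0.02 and 0.09 in Cre-/mdx, -0.72, -0.98 and -0.33 in MCK-MRcko/mdx, and -0.29, -0.36 and -0.22 in LysM-MRcko/mdx. Without any 1 array the median difference lay between -0.60 and -0.38. Adgrf5, an adhesion receptor of endothelium, measured 14.05, 14.20 and 12.91 in Cre-/mdx, 12.40, 12.16 and 12.83 in MCK-MRcko/mdx, and 12.61, 13.07 and 12.86 in LysM-MRcko/mdx (difference -1.07, SE 0.31). Control replicate 3 lay among the knockouts, and leaving out the first (-0.90) or second (-0.83) Cre-/mdx array or the second MCK-MRcko/mdx array (-0.99) lost the call. Pecam1, the adhesion molecule CD31 of endothelial junctions, was named after its values were seen; it measured 11.28, 11.23 and 11.39 in Cre-/mdx, 10.54, 10.10 and 11.06 in MCK-MRcko/mdx, and 11.01, 10.94 and 11.01 in LysM-MRcko/mdx (difference -0.52, SE 0.19, without overlap). The LysM-MRcko/mdx arrays were the closer of the 2 knockouts to the controls. Markers of pericytes and smooth muscle had a median of -0.15 and no call among 12.

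Known targets and partners of MR and GR did not stand out. Among 21 measured genes of that list none was called and the median was -0.15. The circadian clock list had no call among 17 and a median of -0.35. Muscle ASB and kelch ubiquitin ligase adaptors had 1 call among 16, Asb15, and a median of -0.29, and the muscle identity genes had a median of 0.00 with no call among 12, several of them at the top of the scale.

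The 2-fold limit divided genes of similar behavior. Just inside it were Lcp1 (1.01) and C1qc (1.01), and just outside were Mmp13 (0.997), Itgax (0.98), Spi1 (0.97) and Csf1r (0.96) on the higher side and Fabp3 (-0.97) and Rgs5 (-0.98) on the lower. F7, coagulation factor VII, which was named after its values were seen, had the smallest unadjusted p of any gene (adjusted p = 0.625 in limma) and a difference of 0.98 (SE 0.12), short of the limit. It measured 6.21, 6.51 and 6.30 in Cre-/mdx, 7.68, 7.61 and 7.42 in MCK-MRcko/mdx, and 7.33, 6.99 and 6.86 in LysM-MRcko/mdx. All knockout arrays were above all controls, and those of MCK-MRcko/mdx were the highest.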

How the data were processed

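Quadriceps RNA of 9 mice was measured on Clariom D arrays, 1 per mouse. The deposited values are log2 signals at the level of transcript clusters that the authors background-corrected, normalized and summarised with the SST-RMA algorithm in Affymetrix Expression Console; Transcriptome Analysis Console served for their comparisons, and neither version is given in the sources used here. Per-probe intensities were not used here. Values have an upper limit of 19.93, reached by 174 clusters, and array medians lay between 4.70 and 4.78. Depth has no meaning for arrays, and their number limits the precision. The probe table gave 1 gene symbol for 31104 clusters, several for 1497 and none for 33071, and 327 older symbols were updated. The genome build behind the clusters was not given, so their coordinates were not used. Promoters were matched by symbol.

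Models were fitted with limma 3.58.1 in R 4.3.3 (lmFit, contrasts.fit, eBayes) on all 9 arrays with 1 mean per group and no covariates, without further normalization or filter. Benjamini-Hochberg adjustment ran over all 65672 clusters. A gene was called if it differed 2-fold or more with p under 0.05 before adjustment. The study reports 2-fold changes, and its p threshold for the arrays is not given in the sources used here. P-values measure the spread between mice, for which the labels state biological replicates. Exact permutation tests were two-sided. Gene lists (49, with 722 of 792 members measured) were described by counts and medians, without a test. The members and lists were chosen with earlier results of these data known. Genes are named by rule: the 12 largest higher and lower differences among called genes without overlap, first those called in every fit that leaves out 1 array; of each list described, up to 5 called members or the 2 smallest p; Nr3c2 and the muscle identity genes. The alternatives were 1 group of 6 knockout arrays, an unmoderated test, sex as covariate, the replicate number as a block, quantile normalization, median centring, a filter on dim clusters, trended and robust eBayes, array weights, the mean of a gene's clusters, leaving out each array and an adjusted p threshold. The code was tested on simulated data.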

Additional observations from a re-analysis of the deposited data

Results flagged for a closer look

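Among named genes called against the controls, 6 differed between the 2 knockouts by at least 2-fold with an unadjusted p under 0.05 in limma, though none at an adjusted p under 0.05. LysM-MRcko/mdx was above MCK-MRcko/mdx by 2.84 in Tnc, 2.02 in C1qtnf3, 1.29 in Postn, 1.23 in Fcer1g and 1.08 in Pld4, and differed by -1.31 in Msr1, on the log2 scale. The arrays of the 2 knockouts did not overlap in any of these 6 genes. The genes were picked for a difference between these same arrays, so the lack of overlap adds no evidence.

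In some genes and lists 1 of the 6 knockout arrays lay far from the other 5, by a gap wide against their whole range (Dixon's criterion at 95%). LysM-MRcko/mdx replicate 1 was high in Ctss (17.96), Lgmn (15.54), Itgam (12.05), Sirpa (12.17) and Cotl1 (10.00), and in the medians of Fc receptors and ITAM adaptors (1.34) and leukocyte actin regulators (0.83). The median of matrix metalloproteinases and inhibitors was high in LysM-MRcko/mdx replicate 3 (0.75). MCK-MRcko/mdx replicate 1 was high in immediate early genes (1.01) and in red cell and platelet markers (0.18), and MCK-MRcko/mdx replicate 3 was low in genes and targets of MR and GR (-0.72). These were 11 of 113 groups of values examined, and chance flags about 1 in 20.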

How the results depend on the processing

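No called gene changed direction under any alternative tried. With 6 knockout arrays as 1 group, an unmoderated test, quantile normalization, median centring, sex as a covariate, a filter on dim clusters, trended and robust eBayes, array weights or the mean of a gene's clusters, 66 to 77 of the 77 called genes kept their call. Quantile normalization gave 20 lower genes in place of 12, and the unmoderated test left 10 clusters at an adjusted p under 0.05 where limma left 0. With an adjusted p under 0.05 as the threshold, 0 clusters were called higher and 0 lower. Leaving out 1 array gave 46 to 185 higher and 27 to 115 lower clusters, 32 to 124 higher and 11 to 68 lower genes, and 234 to 495 clusters that differed between the knockouts. The lowest counts of higher genes came without Cre-/mdx replicate 1 (32) and LysM-MRcko/mdx replicate 1 (35), and the highest without Cre-/mdx replicate 3 (124). The median of cytokines and their inhibitors, 0.07, was -0.01167 without Cre-/mdx replicate 1 and 0.1283 without Cre-/mdx replicate 2, the ends of its range. The cause of these shifts was not tested.

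The correlation of same-numbered arrays, taken relative to their group means, was between -0.23 and 0.16. Arrays of different numbers were not correlated for comparison, so these values cannot say whether replicate numbers pair the mice. With the replicate number as a block, 80 clusters were higher and 29 lower, and 59 genes higher and 9 lower.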
